A study of Mus musculus with 6 samples.

Results

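The phospholipase, protein kinase C (PKC) and calcium signalling genes were read as a group of 36 genes downstream of Gq, among 45281 probes measured in LβT2 cells. This mouse line comes from gonadotropes, the hormone-secreting cells of the anterior pituitary that make gonadotropins. They were chosen as all probes whose platform symbol was 1 of the 36 names. A probe was found for 35 of the 36 (102 probes). A probe above background was found for 32 of them (51 probes). Itpr1 had no probe with that symbol and is not analysed here, and the only probes of Plcb1, Pld2 and Prkch lay at background. The cells, labelled with strain CB6F1/J, had carried either Gas siRNA (3 samples) or scrambled siRNA (3 samples) for 48 h, before their total RNA was read on Illumina MouseWG-6 v2.0 arrays, with 1 array a sample. All 6 samples came from this 1 cell line, and no untransfected sample was analysed here. In bulk RNA of this kind, fewer cells expressing a gene and less RNA per cell cannot be told apart. Whether the replicate samples were grown as separate cultures is not stated in the labels. The p-values thus reflect only the spread between these arrays, part of which may be technical. For each probe that spread was estimated in large part from other probes of like intensity.

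Receptors coupled to Gq, which in gonadotropes include the receptor for gonadotropin-releasing hormone, activate phospholipase C-beta. The enzyme splits a membrane phosphoinositide into diacylglycerol, which activates PKC, and inositol trisphosphate (IP3), which opens IP3 receptors in the endoplasmic reticulum and releases calcium. Calcium acts through calmodulin on CaM kinases and on the phosphatase calcineurin, which dephosphorylates NFAT transcription factors, and it is removed again by calcium pumps. Gs alpha, the product of Gnas, lies in the parallel cyclic AMP branch.

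Values are normalized log2 intensities, and changes are Gas siRNA minus scrambled siRNA on that log2 scale with Benjamini-Hochberg adjusted p-values over the 21535 probes above background. A gene with several such probes is represented by the brightest, and since probes differ in brightness no gene's level is set against another's. A log2 intensity of about 5.0 corresponds to the background bound. The label Gas was read as Gs alpha. The brightest Gnas probe measured 8.83, 8.95 and 8.93 with Gas siRNA, and averaged 8.90 ± 0.062 against 11.81 ± 0.057 with scrambled siRNA (SD, n = 3 each, limma adjusted p = 6.08e-20). A second Gnas probe had a change of -3.01 (limma adjusted p = 6.11e-17). The other Gnas probes above background were dimmer, had changes from -0.90 to 0.20 and did not pass. With probes averaged the Gnas change was -1.12 (limma adjusted p = 5.04e-04). The gonadotrope genes Lhb, Cga, Gnrhr, Nr5a1, Egr1 and Pitx1 were above the bound on all 6 arrays, whereas Fshb was above it on 0 arrays. Prl, Pomc and Tshb of other pituitary cells were above it on 0 arrays too, but Gh was above it on all 6 arrays, with values from 5.07 to 6.19. Of the fibroblast genes, Col1a1 and Dcn were above it on 0 arrays and Col1a2 on 1 scrambled siRNA array. Pdgfra was above it on 3 Gas siRNA and 2 scrambled siRNA arrays with 1 probe, and on 0 arrays with its other probe. Each array had between 46.3% and 47.1% of its probes above the bound.

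Of the 32 measured members, 1 rose (Chp2) and 2 fell (Pld1 and Prkcb) with Gas siRNA, and 29 did not pass. Across all 11442 genes, 1.71% passed in either direction, 0.734% higher and 0.979% lower, and the 3 called members make up 9.38% of those measured. The members were chosen with earlier results of these data known, so these shares are a description and not a test. The median change of the members was -0.036, and their changes ranged from -0.89 to 1.01. Over all genes the median was -0.00022, with a 5th percentile of -0.33 and a 95th percentile of 0.32. The sign was negative for 20 members and positive for 12. The median absolute change was 0.13 for the members and 0.11 for all genes. Gas siRNA and scrambled siRNA arrays were fully separated in 8 of the 32 members (25%), and in 16.1% of all genes.

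**Figure D1:**
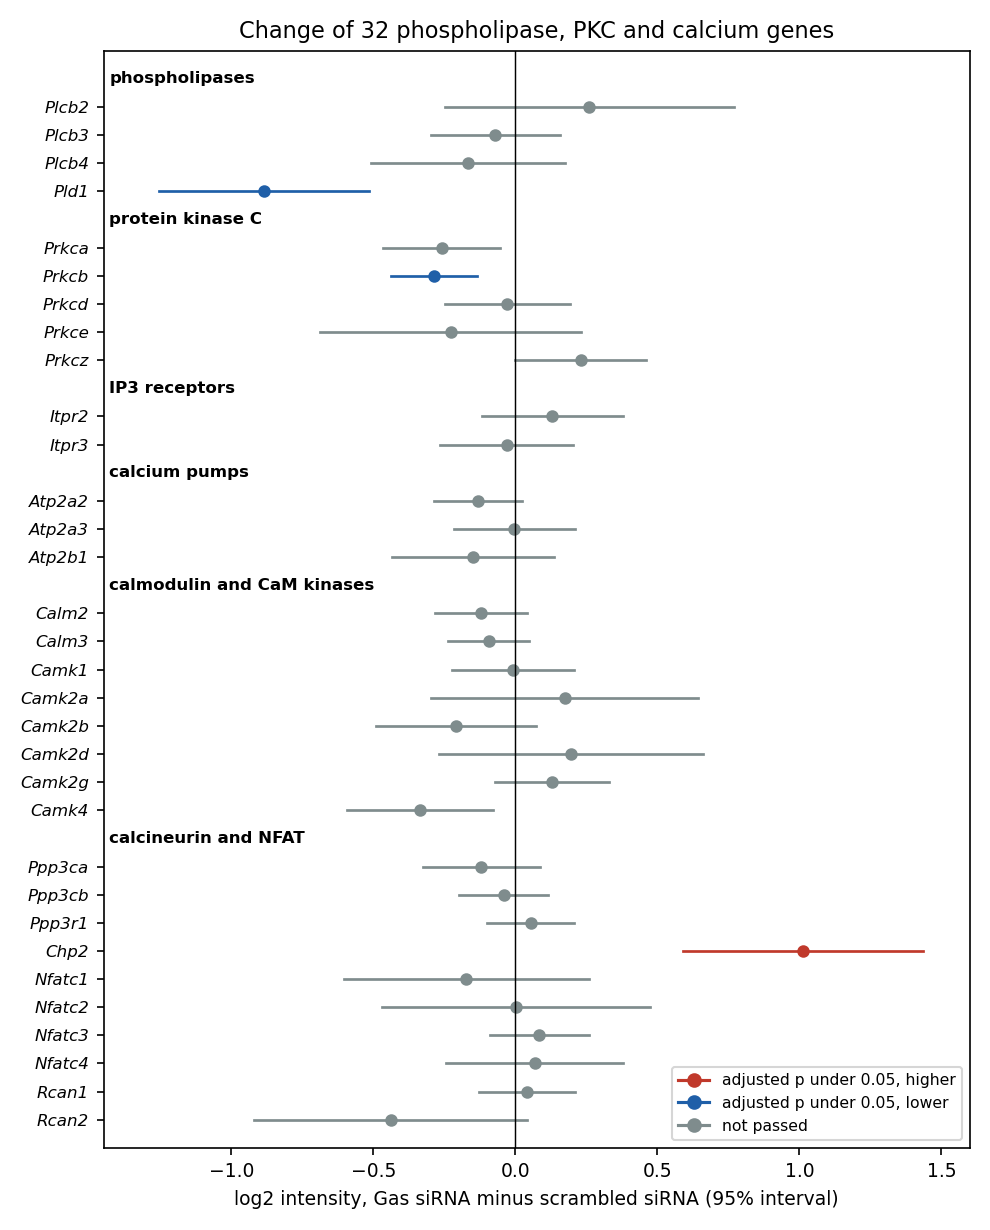
Log2 change (x axis, Gas siRNA minus scrambled siRNA) of the brightest probe of each of the 32 measured members, grouped by role, with 95% intervals from limma. Chp2 lies at 1.01 and Pld1 at -0.89, and every other point lies between -0.44 and 0.26.

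The start-site regions of the 3 called members, and of Stim1, the gene of the wider pathway with the smallest adjusted p, are shown because the main results turn on these 4 genes. The 250 bases before each start were taken from RefSeq (GRCm38.p6), 5′ to 3′ on the strand of the gene, which is the plus strand for all 4. Capitals mark a match to the core of the cyclic AMP response element (TGACG on either strand), the full element TGACGTCA, which contains that core, or the TPA response element (TGAGTCA on either strand), through which PKC and AP-1 act.
Chp2, chr7:122219246-122219495: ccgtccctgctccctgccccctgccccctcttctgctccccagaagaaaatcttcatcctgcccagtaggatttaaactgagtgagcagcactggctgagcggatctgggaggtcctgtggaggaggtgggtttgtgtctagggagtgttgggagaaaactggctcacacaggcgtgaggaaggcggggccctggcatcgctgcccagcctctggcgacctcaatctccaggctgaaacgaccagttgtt
Prkcb, chr7:122288875-122289124: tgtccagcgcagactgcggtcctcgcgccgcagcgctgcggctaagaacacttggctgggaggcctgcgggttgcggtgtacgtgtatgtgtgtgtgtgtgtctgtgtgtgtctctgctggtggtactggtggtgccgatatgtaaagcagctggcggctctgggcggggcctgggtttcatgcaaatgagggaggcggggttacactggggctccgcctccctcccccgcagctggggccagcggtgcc
Pld1, chr3:27938430-27938679: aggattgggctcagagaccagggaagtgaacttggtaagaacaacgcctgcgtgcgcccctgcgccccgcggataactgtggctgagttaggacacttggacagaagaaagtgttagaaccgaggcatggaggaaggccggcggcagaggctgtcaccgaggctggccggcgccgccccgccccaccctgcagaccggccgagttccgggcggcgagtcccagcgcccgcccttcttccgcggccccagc
Stim1, chr7:102267569-102267818: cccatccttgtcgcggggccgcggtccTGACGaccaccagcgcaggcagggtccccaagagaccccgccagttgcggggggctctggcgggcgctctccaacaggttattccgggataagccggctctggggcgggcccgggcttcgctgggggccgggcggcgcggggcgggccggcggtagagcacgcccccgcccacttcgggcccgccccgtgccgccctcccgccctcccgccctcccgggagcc

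The only match in these 4 windows was 1 core in Stim1, 223 bases before its start. The windows of a second listed Pld1 start and of Gnaq, described below, held none. Of all 32851 windows in the table, 17.8% held the core, 1.55% the full element and 4.46% the TPA response element. Windows were listed for 26 of the 36 members (38 windows), of which 7 held the core, 1 the full element and 3 the TPA response element. A match is a description of letters and not of binding. The Chp2 and Prkcb starts lie 69.6 kb apart, and Prkcb is the next protein-coding gene after Chp2 in the RefSeq table.

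Among the phospholipases, Pld1, which makes phosphatidic acid from phosphatidylcholine, was lower with Gas siRNA. Its log2 intensity was 5.91, 6.13 and 6.08 with Gas siRNA, against 6.76, 6.80 and 7.22 with scrambled siRNA, so all 3 Gas siRNA arrays lay below all scrambled siRNA arrays. As deposited, these are intensities of 172, 182 and 180 with Gas siRNA, and 220, 223 and 261 with scrambled siRNA, which is dim but above the bound of 143 to 144 on every array. The change was -0.89 (SE 0.181, 95% interval -1.26 to -0.52, limma adjusted p = 0.00768), or 1.85-fold lower with Gas siRNA. The call rested on scrambled siRNA replicate 3, the highest array: without it the change was -0.74 (limma adjusted p = 0.0948, in a range over the alternatives from 0.00221 to 0.172). With no background correction the change was -0.37, with its call kept.

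The phospholipase C-beta genes, the direct effectors of Gq, did not pass. Plcb2 measured 5.08, 5.55 and 4.87 with Gas siRNA, against 4.66, 5.14 and 4.92 with scrambled siRNA, values that straddle the bound and overlap. Plcb4 measured 6.63, 7.17 and 6.78 with Gas siRNA, against 6.94, 7.09 and 7.05 with scrambled siRNA, and the groups overlapped here too. Their changes were 0.26 (95% interval -0.25 to 0.77) for Plcb2 and -0.17 (-0.51 to 0.17) for Plcb4. Plcb3 was above the bound on all arrays and differed by -0.071 (-0.30 to 0.16). Plcb1 was above the bound on 0 Gas siRNA arrays and 0 scrambled siRNA arrays, and Pld2, the paralogue of Pld1, on 1 array of each group.

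Of the 5 PKC members measured, 1 fell, Prkcb, a conventional isoform that needs both calcium and diacylglycerol. The brightest Prkcb probe measured 12.51, 12.44 and 12.51 with Gas siRNA, against 12.68, 12.73 and 12.91 with scrambled siRNA. The groups did not overlap, and the change was -0.29 (SE 0.0735, limma adjusted p = 0.0463), or 1.22-fold lower with Gas siRNA. The other 2 Prkcb probes had changes of -0.099 (limma adjusted p = 0.791) and -0.15 (limma adjusted p = 0.706), and their groups overlapped. The call was thus close to the threshold and probe-dependent. It was lost under 9 of 13 alternatives, among them the removal of any array other than scrambled siRNA replicate 1, with limma adjusted p from 0.0174 to 0.482, and with the 3 probes averaged the change was -0.18.

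Prkca, also a conventional isoform, measured 9.44, 9.43 and 9.21 on its brightest probe with Gas siRNA, against 9.70, 9.59 and 9.57 with scrambled siRNA. Its second probe measured 5.39, 5.93 and 5.50 with Gas siRNA, against 6.24, 6.36 and 6.11 with scrambled siRNA. On each probe all Gas siRNA arrays lay below all scrambled siRNA arrays, with changes of -0.26 and -0.63, but neither passed (limma adjusted p = 0.311 and 0.167). Prkcz, an atypical isoform that needs neither calcium nor diacylglycerol, measured 9.05, 9.19 and 9.20 with Gas siRNA, against 8.71, 8.92 and 9.12 with scrambled siRNA. Its change was 0.23 (95% interval -0.0026 to 0.46, limma adjusted p = 0.506), the groups overlapped, and its other 2 probes had changes of 0.069 and 0.12. Prkcd and Prkce, which respond to diacylglycerol without calcium, differed by -0.028 (-0.25 to 0.19) and -0.23 (-0.69 to 0.23). Prkch, of the same class, was above the bound on 0 arrays with either of its 2 probes.

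**Figure D2:**
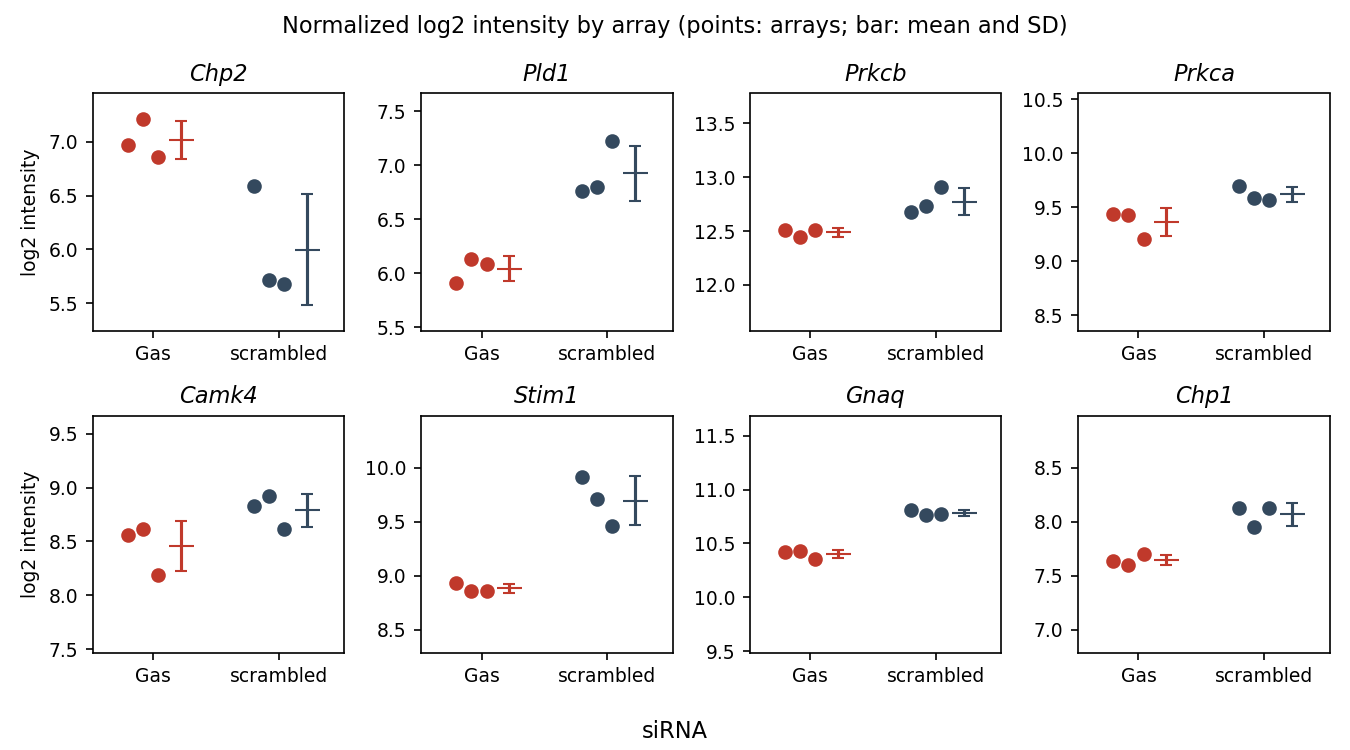
Normalized log2 intensity (y axis, the same span in each panel) on each array for 8 genes, Gas siRNA left of scrambled siRNA, with points for arrays and a bar for the mean and SD. In Chp2 the 3 Gas siRNA arrays sit between 6.86 and 7.21, above the scrambled siRNA arrays, and in the other 7 genes they sit below them, for Camk4 by less than the rounding to 8.62.

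Neither measured IP3 receptor gene passed. Itpr2 measured 8.29, 8.22 and 8.43 with Gas siRNA, against 8.07, 8.23 and 8.26 with scrambled siRNA. Itpr3 measured 8.65, 8.67 and 8.52 with Gas siRNA, against 8.60, 8.78 and 8.55 with scrambled siRNA. The groups overlapped in both, with changes of 0.13 (95% interval -0.12 to 0.38) and -0.030 (-0.26 to 0.20).

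The calcium pump genes did not pass on their brightest probes, though 1 further probe of Atp2a2 did. Atp2a2 encodes the widespread pump that refills the endoplasmic reticulum. Its brightest probe measured 11.41, 11.35 and 11.41 with Gas siRNA, against 11.51, 11.50 and 11.55 with scrambled siRNA, a change of -0.13 (limma adjusted p = 0.605). A second probe measured 11.04, 11.23 and 11.11 with Gas siRNA, against 11.51, 11.46 and 11.36 with scrambled siRNA, and fell by 0.32 (limma adjusted p = 0.0463). The groups did not overlap on either probe. The remaining probe overlapped, with a change of -0.14 (limma adjusted p = 0.733), so all 3 changes were negative and 1 was called, among 4 called probes of the 51 member probes and 1.21% of all probes. Atp2b1, a pump of the plasma membrane, measured 7.54, 7.52 and 7.30 with Gas siRNA, against 7.61, 7.54 and 7.65 with scrambled siRNA, a change of -0.15 (limma adjusted p = 0.800). The groups were separated, but by less than the rounding of these values. Atp2a3, a second reticulum pump, measured 9.05, 9.00 and 8.98 with Gas siRNA, against 9.00, 9.00 and 9.04 with scrambled siRNA. Its change of -0.0033 had a 95% interval from -0.21 to 0.21.

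None of the 8 calmodulin and CaM kinase genes passed, with changes from -0.34 to 0.20. Camk4, a nuclear kinase that phosphorylates CREB, had the smallest adjusted p of them. It measured 8.56, 8.62 and 8.19 with Gas siRNA, against 8.83, 8.92 and 8.62 with scrambled siRNA, a change of -0.34 (95% interval -0.59 to -0.079, limma adjusted p = 0.277). The groups were separated, though only by a margin smaller than the rounding. Camk2b, a subunit of the multifunctional CaM kinase II, measured 8.37, 8.27 and 7.90 with Gas siRNA, against 8.44, 8.57 and 8.15 with scrambled siRNA. The groups overlapped, and its change was -0.21 (limma adjusted p = 0.671). The other kinase II subunit genes Camk2a, Camk2d and Camk2g differed by 0.17, 0.20 and 0.13, with Camk2a and Camk2d near the bound. The dimmer Camk2g probes above background went the other way, with changes from -0.21 to -0.083.

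Calm2, 1 of the genes that encode calmodulin, measured 12.15, 12.26 and 12.14 with Gas siRNA, against 12.48, 12.16 and 12.26 with scrambled siRNA. The change on this probe was -0.12 (limma adjusted p = 0.677), while its other 2 probes had changes of 0.13 and 0.082. Calm3 differed by -0.095 (95% interval -0.24 to 0.048). Camk1, which is switched on by CaM kinase kinase, differed by -0.0081 (-0.22 to 0.21) on its brightest probe.

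In the calcineurin and NFAT group, Chp2 was higher with Gas siRNA. It encodes calcineurin B homologous protein 2, a calcium-binding EF-hand protein known to bind sodium-proton exchangers. Its log2 intensity was 6.97, 7.21 and 6.86 with Gas siRNA, against 6.59, 5.72 and 5.68 with scrambled siRNA. The groups did not overlap, but scrambled siRNA replicate 1 lay closer to the Gas siRNA arrays than to the other scrambled siRNA arrays. As deposited, these are intensities of 237, 260 and 228 with Gas siRNA, and 208, 165 and 163 with scrambled siRNA. The change was 1.01 (SE 0.206, 95% interval 0.59 to 1.44, limma adjusted p = 0.00768), or 2.02-fold higher with Gas siRNA. The call was lost without scrambled siRNA replicate 2 (0.87, limma adjusted p = 0.0545), without scrambled siRNA replicate 3 (0.86, limma adjusted p = 0.0650) and without Gas siRNA replicate 2 (0.92, limma adjusted p = 0.0752), in a range over the alternatives from 3.76e-04 to 0.285. With no background correction the change was 0.41, with its call kept.

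The calcineurin subunit genes and their regulators did not pass. Ppp3ca, a catalytic subunit, measured 9.81, 9.77 and 9.74 with Gas siRNA, against 10.10, 9.87 and 9.71 with scrambled siRNA. Its change was -0.12 (limma adjusted p = 0.773), with overlapping groups and 0.037 on its second probe. Ppp3cb, another catalytic subunit, differed by -0.042 (95% interval -0.20 to 0.11) and the regulatory subunit Ppp3r1 by 0.054 (-0.099 to 0.21). Rcan2, a calcineurin inhibitor, measured 4.94, 5.01 and 5.27 with Gas siRNA, against 5.59, 5.82 and 5.13 with scrambled siRNA. These values straddle the bound and overlap, and the change was -0.44 (-0.92 to 0.042, limma adjusted p = 0.559). Rcan1 is an inhibitor whose transcription is a known target of NFAT. It measured 10.68, 10.69 and 10.73 with Gas siRNA, against 10.61, 10.68 and 10.69 with scrambled siRNA, a change of 0.042 (-0.13 to 0.21). A second Rcan1 probe, near the bound, had a change of -0.24 (limma adjusted p = 0.804). The NFAT genes Nfatc1, Nfatc2, Nfatc3 and Nfatc4 differed by -0.17, 0.0022, 0.084 and 0.068, and none passed. Dimmer Nfatc3 probes had changes of -0.16 and 0.35, the latter near the bound with separated groups (limma adjusted p = 0.830 and 0.682). Nfatc2 was at the bound, with all 6 arrays between 4.95 and 5.16.

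**Figure D3:**
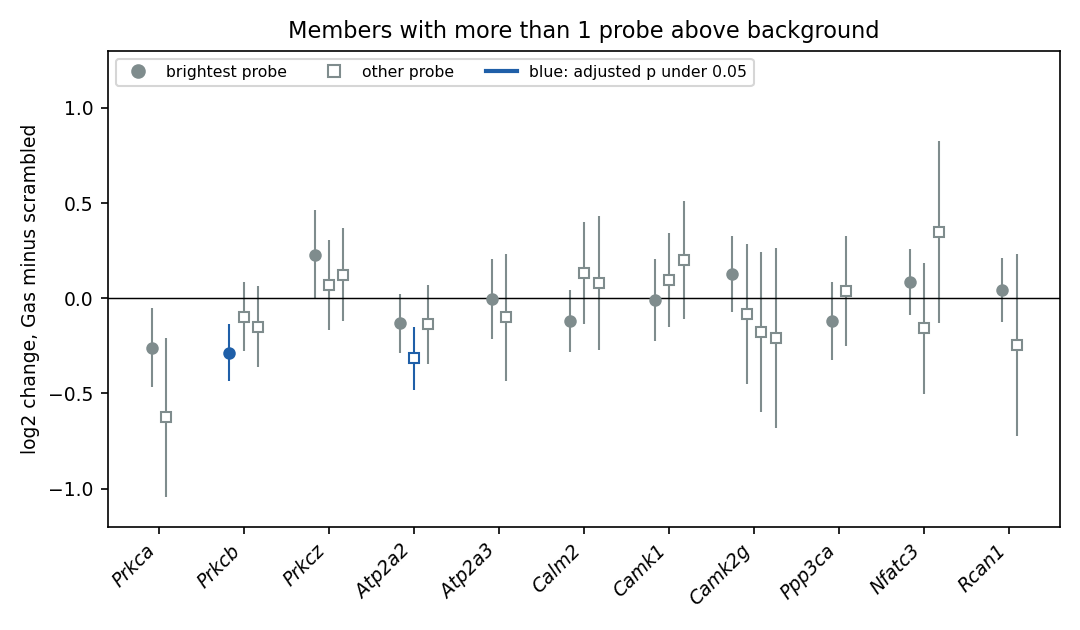
Log2 change (y axis, Gas siRNA minus scrambled siRNA) of every probe above background for the 11 members with more than 1 such probe, with 95% intervals. The probes of Prkca, Prkcb, Prkcz, Atp2a2 and Atp2a3 had 1 sign within each gene, and the probes of the other 6 genes had mixed signs.

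Across the 11 members with several probes above background, the changes of 5 had a single sign. These were Prkca, Prkcb, Atp2a2 and Atp2a3, all negative, and Prkcz, all positive. In Calm2, Camk1, Camk2g, Ppp3ca, Nfatc3 and Rcan1 the probes differed in sign, and none of them passed.

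The wider pathway was read from a list of 93 other genes, taken from textbook knowledge but with earlier results of these data known. Of these, 64 had a probe above background, 0 rose, 2 fell and 62 did not pass, and the 2 called make up 3.12% of those measured against 1.71% of all genes. Stim1, the calcium sensor of the endoplasmic reticulum that opens store-operated channels, had the smallest adjusted p of the list. It measured 8.93, 8.86 and 8.86 with Gas siRNA, against 9.92, 9.71 and 9.46 with scrambled siRNA, so the groups were separated. The change was -0.81 (SE 0.111, 95% interval -1.04 to -0.59, limma adjusted p = 5.58e-05), or 1.76-fold lower with Gas siRNA. Leaving out any single array kept the call. A second Stim1 probe straddled the bound (0.048, limma adjusted p = 0.972), and with probes averaged the change was -0.38 (limma adjusted p = 0.324, in a range over the alternatives from 1.88e-06 to 0.324). Orai1, the channel that Stim1 opens, named after its value was seen like Gna11 below, differed by 0.21 (limma adjusted p = 0.564).

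Gnaq, the Gq alpha subunit that activates phospholipase C-beta, measured 10.42, 10.43 and 10.36 with Gas siRNA, against 10.81, 10.76 and 10.77 with scrambled siRNA. It fell by 0.37 (limma adjusted p = 0.0156), with separated groups, but the call was lost under 7 of 13 alternatives (limma adjusted p from 0.00546 to 0.347), among them the removal of any array other than scrambled siRNA replicate 2 (limma adjusted p from 0.0543 to 0.0768) and the averaging of probes. Its paralogue Gna11 differed by -0.10 (limma adjusted p = 0.762). Chp1, the paralogue of Chp2, measured 7.64, 7.60 and 7.70 with Gas siRNA, against 8.13, 7.95 and 8.13 with scrambled siRNA. The groups were separated and the change of -0.42 (95% interval -0.69 to -0.16) was opposite in sign to that of Chp2, but it did not pass (limma adjusted p = 0.130).

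**Figure D4:**
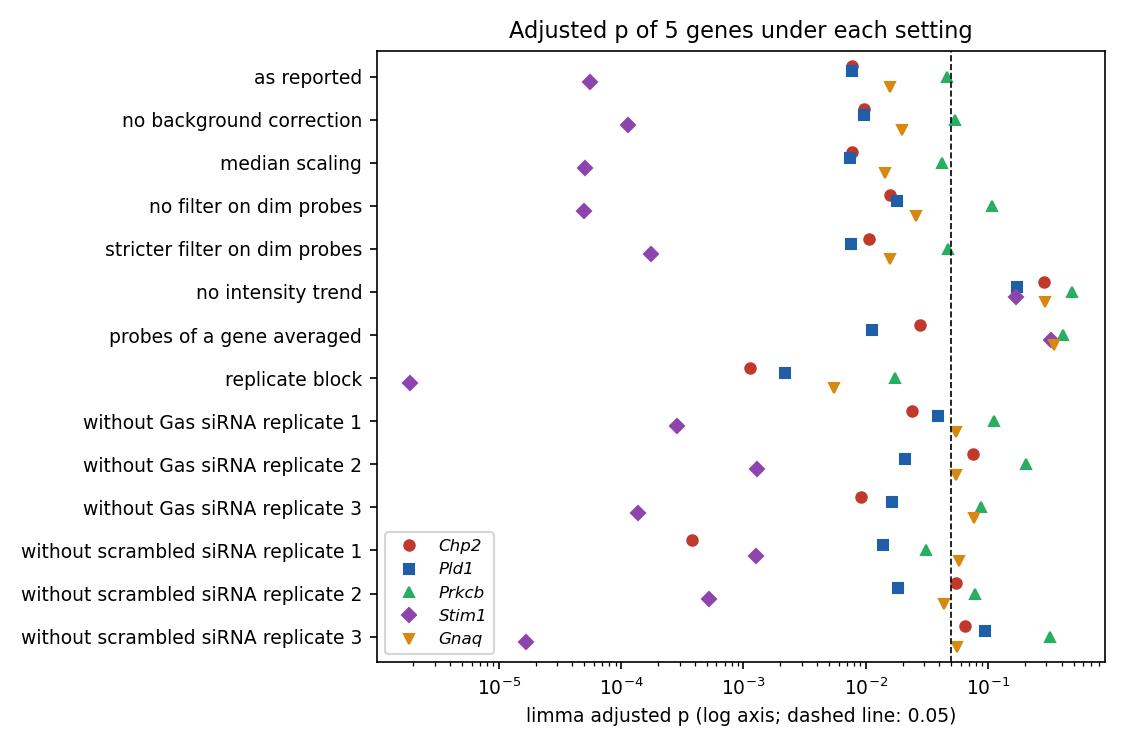
Limma adjusted p (x axis, log scale) of Chp2, Pld1, Prkcb, Stim1 and Gnaq as reported and under each of 13 alternative settings, with a dashed line at 0.05. Stim1 passes under 11 alternatives, Pld1 under 11, Chp2 under 9, Gnaq under 6 and Prkcb under 4.

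All 5 calls depended on the variance model. When eBayes was run with no trend, the limma adjusted p was between 0.170 and 0.482 for each of Chp2, Pld1, Prkcb, Stim1 and Gnaq, and 8 probes passed in place of 261.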

How the data were processed

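The linear intensity values deposited by the authors were used, 1 for each probe on each array. BeadStudio stands in the submitters' processing notes. How values were normalized is not stated there or in the labels. Sorted columns differed by at most 1.67% below the 10 brightest probes, as quantile normalization leaves them. With a lowest value of 97.6, background was still in the values. A second table with 24 columns, which match no sample's labels, was not used, nor were its detection p-values. Background was taken from the mode of each array's log2 density and the spread below it. Normexp, an offset of 16, quantile normalization and log2 followed. Probes above the 95th percentile of background on at least 3 of 6 arrays were kept. Symbols came from the platform annotation.

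The contrast was fitted in limma 3.58.1, under R 4.3.3 (lmFit, eBayes with intensity trend, 2-sided, threshold 0.05, 24.2 prior and 4 residual degrees of freedom) without a replicate block. Members, lists and alternatives were chosen with earlier results of these data known. Every member was named, with values by array for called members, for up to 3 members of each role with the smallest adjusted p and for those whose probes disagreed on the call. Rcan1 was added after its values were seen. The fit was tested on simulated data with known changes. Changes of 0.3 and 0.5 were called in 18% and 62% of cases, and changes of 1 and 2 in 92% and 100%. Of 149 calls, 13 were false. The simulated noise was normal with the SDs of this same fit, so it could not test the variance model. The number of arrays limits the precision.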

Additional observations from a re-analysis of the deposited data

How the results depend on the processing

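The alternatives were no background correction, median scaling, no filter on dim probes, a stricter filter (all 6 arrays), no intensity trend, averaged probes, a replicate block and the removal of each array. The sign of Chp2, Pld1, Prkcb, Stim1 and Gnaq was the same under all 13, but most of these could not have reversed it. The groups were fully separated in each of these genes, so the removal of 1 array could not change the sign. The filters, the trend and the block left the change itself as it was. The count of 261 called probes was 8 without the intensity trend, 132 with probes averaged (fewer features tested), and between 145 and 215 without 1 array. The count of 3 called members was 0 without the trend and ranged from 0 to 3 without 1 array, with 0 without scrambled siRNA replicate 3 and 1 without Gas siRNA replicate 2 or scrambled siRNA replicate 2. The count of 2 called other pathway genes was 0 without the trend, 0 with probes averaged and 1 to 2 without 1 array. This count was 2 without scrambled siRNA replicate 1 (Stim1 and Calr) and without scrambled siRNA replicate 2 (Stim1 and Gnaq). With the replicate number as a block 427 probes passed, and the same 3 members and 2 other genes. Deviations from the group means correlated at 0.017, 0.060 and 0.096 between arrays of the same number. Between arrays of different numbers they correlated from -0.081 to 0.023, so 0.060 and 0.096 lie above that range. The numbers were not taken as pairs because no pairing is named in the design text. These correlations do not settle whether the samples were paired. Where a call was lost through fewer arrays, less replication is part of the alternative itself, and otherwise the cause was not tested. Nearness to background limits the dim members, whose intervals were wider.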

Other observations

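The protein-coding genes beside the called members were looked up after the values were seen. Chp2, which rose, and Prkcb, which fell, are neighbours on mouse chromosome 7. Ern2, on the other side of Chp2, had 1 probe above background, with a change of 0.13 (limma adjusted p = 0.905), and Cacng3, on the other side of Prkcb, had 0. Beside Pld1, Tnik differed by 0.0023 (limma adjusted p = 0.995) and Tmem212 had 0 probes above background.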
